A study of Mus musculus with 43 samples.

Results

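The 10 genes of pericellular matrix breakdown described here were measured through every library of the series: 6 matrix metalloproteinases (Mmp2, Mmp3, Mmp7, Mmp9, Mmp13 and Mmp14), 3 tissue inhibitors of metalloproteinases (Timp1, Timp2 and Timp3) and Plau, the urokinase-type plasminogen activator. They were chosen by gene name. Each of the 10 had 1 row among the 52636 genes of both deposited tables. RNA sequencing had been run on 24 organoid libraries and 19 fibroblast libraries, 43 in all. Colonoids (Apc wt/wt) and tumoroids (Apc flox/flox) came from the colon of adult mice, 2 months old, that all carried the Vil-cre/ERT2 transgene. All had received tamoxifen. The villin promoter drives this Cre in gut epithelium. There were 3 lines per genotype, each from 1 mouse: M1, M40 and M41 for colonoids, and M3, M14 and F11 for tumoroids. Each line was kept for 6 days in vehicle (Ve, DMSO at 0.5%), regorafenib at 4 µM (R4) or 8 µM (R8), or 5-fluorouracil at 1 µM (FU). Primary colon fibroblasts of wild-type C57BL/6 mice were treated for 7 days. The study lists fibroblast lines M3 and M3(2) as from mice 2 months old and does not list M1(2) or M11. Their groups were Ve, R4, regorafenib at 10 µM (R10), autogramin-2 at 1 µM (A1) and R4 with A1 (R4A1). Lines M3, M3(2) and M1(2) were sequenced in all 5 groups, and line M11 in all but R10, so that R10 had 3 libraries and the others 4. Regorafenib is a multi-kinase inhibitor used in colorectal cancer, autogramin-2 blocks autophagy, and 5-fluorouracil blocks thymidylate synthesis.

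Matrix metalloproteinases are zinc proteases that are made as inactive precursors. Mmp3 (stromelysin-1) cuts proteoglycans and activates other precursors, Mmp13 is the main interstitial collagenase of the mouse, Mmp2 and Mmp9 are gelatinases, Mmp7 (matrilysin) is the epithelial member, and Mmp14 is anchored in the membrane and activates pro-Mmp2. Timp1, Timp2 and Timp3 bind the active enzymes, Timp2 also takes part in the activation of pro-Mmp2 by Mmp14, and Timp3 is held in the matrix. Plau turns plasminogen into plasmin, which opens several of the precursors. In the colon most of these genes are known from stromal and inflammatory cells.

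Many metalloproteinase promoters are known to carry a site for AP-1 factors close to the start, and the bases just before the start are shown here for members that were lower in every fibroblast line under regorafenib (Mmp3, Mmp13 and Timp1), for Mmp14, which was higher at the top dose, and for the epithelial Mmp7. Each run is the 120 bases before the RefSeq start on the + strand of GRCm38.p6, read 5′ to 3′. Capitals mark matches to any of the following motifs, searched on both strands. The consensus for AP-1 is TGANTCA. The box bound by TBP is written TATAAA. The box bound by Sp1 is GGGCGG. No match overlapped one of another motif.
Mmp3, chr9:7445702-7445821: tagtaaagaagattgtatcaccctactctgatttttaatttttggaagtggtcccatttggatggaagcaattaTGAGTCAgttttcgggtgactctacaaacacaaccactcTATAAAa
Mmp13, chr9:7272394-7272513: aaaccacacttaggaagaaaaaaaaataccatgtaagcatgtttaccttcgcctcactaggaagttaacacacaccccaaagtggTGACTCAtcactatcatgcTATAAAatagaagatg
Mmp7, chr9:7691970-7692089: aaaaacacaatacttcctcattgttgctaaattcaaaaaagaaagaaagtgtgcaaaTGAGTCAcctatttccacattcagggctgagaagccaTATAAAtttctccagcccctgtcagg
Timp1, chrX:20870046-20870165: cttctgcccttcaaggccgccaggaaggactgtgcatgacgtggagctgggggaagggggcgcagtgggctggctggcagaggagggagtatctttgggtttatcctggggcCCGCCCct
Mmp14, chr14:54431478-54431597: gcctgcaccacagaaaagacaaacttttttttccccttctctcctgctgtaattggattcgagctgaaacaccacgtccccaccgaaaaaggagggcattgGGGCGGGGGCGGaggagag
With the first transcribed base counted as 0, TGANTCA lay at -46 to -40 in Mmp3, at -35 to -29 in Mmp13 and at -63 to -57 in Mmp7, each above a TATAAA. Timp1 and Mmp14 had neither, and both had GC boxes. Of 32851 RefSeq windows of 300 bases (250 before and 50 after a start), 7.81% held TGANTCA, 13.6% TATAAA and 35.7% GGGCGG. Mmp7 has a second RefSeq start downstream of the first, whose window held none of the motifs and is not shown. Of the 10 members 7 had an entry, Timp2 and Timp3 being the others, each with GGGCGG and neither of the other motifs. Mmp3, Mmp7 and Mmp13 all lie on chromosome 9 (GRCm38, 7445822 to 7455975, 7692090 to 7699585 and 7272514 to 7283331, all + strand), Plau and Mmp14 both lie on chromosome 14 (20836660 to 20843385 and 54431612 to 54445364), Mmp2 on 8 (92827291 to 92853420), Mmp9 on 2 (164940780 to 164955850), Timp1 on X (20870166 to 20874735), Timp2 on 11 (118301069 to 118355740, - strand) and Timp3 on 10 (86300372 to 86349506). Timp1 and Timp3 lie inside Syn1 and Syn3, which are read from the opposite strand.

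Depth and cell identity were checked first. Values are read counts that the authors scaled to 20000000 per library (CP20M). Recovered read totals were 7949937 to 12825870 in fibroblasts and 4371789 to 22368445 in organoids, apart from the colonoid library M41 R4, which had 512592 reads and in which 1 read was worth 39.0 CP20M. The 8 epithelial markers summed to 106355 to 349595 CP20M in organoids and 179 to 1535 in fibroblasts, and the 8 fibroblast markers to 12 to 123 and 110998 to 186156. In organoids Col1a1 reached at most 118 CP20M, Pdgfrb 73, Col3a1 35, Dcn 25, Pdgfra 19, Thy1 16, Col1a2 4 and Lum 0. Lum was itself low in fibroblasts, at 22 to 347. The leukocyte genes Ptprc and Lyz2 reached at most 7 and 4 in organoids. Other genes of the macrophage and neutrophil lists were present there, Csf1r at no less than 352, Cd68 at 32 to 2659, Cd14 at 261 to 2560 and Ly6g at 584 to 9951. Apc counts over the whole gene were 1542 to 4944 CP20M in colonoids and 3813 to 6032 in tumoroids and do not check the loss of part of the gene. These are bulk libraries, in which fewer cells of a type and less RNA per cell cannot be told apart.

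Levels were compared between genes per kilobase of annotated exon, in Ve. In fibroblasts Timp2 was the most abundant, at a mean of 10452 CP20M per kb (range 7700 to 12919, n = 4), with the matrix-bound Timp3 at 3407 and the soluble Timp1 at 3119. The ranges of Timp3 (2497 to 5033) and Timp1 (1693 to 3989) overlapped, and Timp2 lay above both. Plau (2029), Mmp14 (1334), Mmp3 (565), Mmp2 (450) and Mmp13 (169) followed, and each overlapped its neighbour in this order between libraries. Mmp14 (1169 to 1513) and Mmp3 (288 to 1191) overlapped only through the high Mmp3 of line M1(2).

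**Figure D1:**
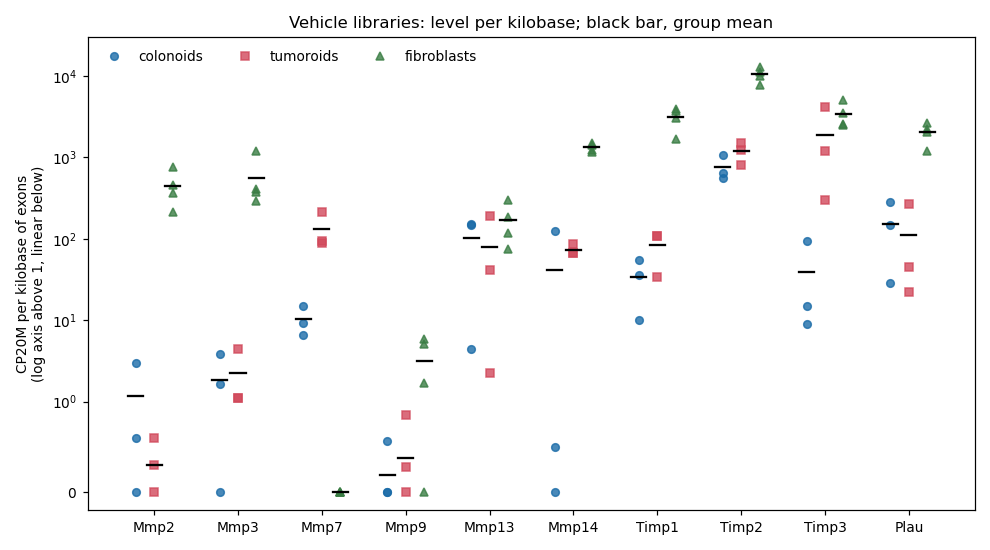
Level of the 10 members in the Ve libraries, in CP20M per kilobase of exons (log axis above 1, linear below). Points are single libraries (3 colonoid, 3 tumoroid and 4 fibroblast lines) and black bars group means. Timp2 is the top fibroblast gene at 10452, and Mmp7 is at 0 in all 4 fibroblast lines.

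In organoids Timp2 was among the highest members in both genotypes, joined by Timp3 in tumoroids. In colonoids Timp2 stood at 757 CP20M per kb in Ve (565 to 1060, n = 3), above Plau (153), Mmp13 (102), Mmp14 (41.9), Timp3 (39.0), Timp1 (33.8) and Mmp7 (10.3), none of which reached the Timp2 range. In tumoroids Timp3 (1873, range 298 to 4129) and Timp2 (1188, 806 to 1517) led with overlapping ranges. Mmp7 (132), Plau (111), Timp1 (83.3), Mmp13 (78.7) and Mmp14 (73.4) came next, each overlapping its neighbour in this order. The tables were scaled separately and levels across them were not tested.

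The gelatinases and stromelysin were close to absent from epithelium. Mmp2 had at most 3 reads in any organoid library, Mmp9 at most 3 and Mmp3 at most 17, while Mmp2 was at 675 to 3256 CP20M in all 19 fibroblast libraries. The single Mmp2 value of 79 CP20M in colonoid M41 R4 was 2 reads. Mmp9 stayed at 0 to 21 CP20M in fibroblasts, at most 12 reads. Mmp7 showed the opposite distribution. It was detected in 23 of 24 organoid libraries and had 0 reads in all 19 fibroblast libraries, where 3 reads would be worth 4.68 to 7.55 CP20M and lower levels were not detectable. Timp1, a fibroblast gene at 676 to 4111 CP20M, reached at most 96 in organoids. These low genes did not pass the filter for testing (200 CP20M in at least 2 libraries), which left 8 of 10 members in fibroblasts and 6 of 10 in organoids (Mmp7, Mmp13, Mmp14, Timp2, Timp3 and Plau).

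In fibroblasts, regorafenib lowered a subset of the family, namely Mmp3, Plau and Timp1, with Mmp13 beside them, whereas Mmp2, Timp2 and Timp3 did not pass the test. The comparison of R10 with Ve asked what the higher dose did to stromal cells. With calls made at an adjusted p below 0.05 and a change of at least 1.5-fold, 3 of the 8 tested members were lower and none higher by limma, and edgeR on recovered reads also called 3. Over all 11032 genes tested 7.33% were called, 4.09% lower. The median log2 fold change was -1.06 over the tested members and -0.04 over all genes.

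Mmp3 was at 519, 730, 2145 and 677 CP20M in Ve for lines M3, M3(2), M1(2) and M11. In R4 the same lines had 156, 279, 421 and 91, and in R10 lines M3, M3(2) and M1(2) had 25, 131 and 243. Neither treated group overlapped Ve, and line M1(2) was the highest in every group. On the log2(CP20M + 20) scale Mmp3 fell by 2.86 ± 0.68 (SE) in R10, adjusted p = 0.0101.

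Plau was at 5257, 4898, 6227 and 2828 CP20M in Ve for M3, M3(2), M1(2) and M11. It was at 2460, 2094, 2402 and 1142 in R4, and at 1203, 1228 and 1249 in R10. R4 and R10 both lay below all Ve libraries. In R10 its log2 change was -1.89 ± 0.35, adjusted p = 0.00207.

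Timp1 was at 3333, 3542, 2702 and 1503 CP20M in Ve in the same order of lines. It was at 1580, 1640, 1315 and 784 in R4, which overlapped Ve because of line M11, and at 743, 676 and 701 in R10, which did not. Its log2 change in R10 was -1.87 ± 0.35, adjusted p = 0.00243.

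Mmp13 was at 201, 496, 796 and 318 CP20M in Ve, at 92, 217, 228 and 68 in R4 and at 32 in M3 and 168 in M1(2) in R10, with M3(2) between them. The collagenase was lower in R10 in 3 of 3 lines, and its log2 change of -1.82 ± 0.60 had an adjusted p of 0.0526. With 100 in place of 20 CP20M as pseudocount this p was 0.0495.

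At R4 the same 4 genes were lower in 4 of 4 lines each, and none passed the test across lines. Their log2 changes were -1.97 ± 0.63 for Mmp3, -1.44 ± 0.56 for Mmp13, -1.24 ± 0.32 for Plau and -1.03 ± 0.33 for Timp1, with adjusted p values of 0.15, 0.239, 0.0642 and 0.147. Unadjusted, 4 of the 8 members were under 0.05, edgeR called 0, and 1.02% of all genes were called. The SE of the Mmp3 change was 0.63 across lines and 0.22 with the line as a block. With the line as a block, which the design pairs because each line was split over the treatments, all 4 passed at R4, with adjusted p = 1.06e-05 for Mmp3, 1.29e-05 for Mmp13, 1.56e-06 for Timp1 and 4.85e-08 for Plau, against 7.22% of all genes, 2.64% lower. The blocked fit called the same 4 members at R10 (13.8% of all genes, 7.71% lower), Mmp13 with an adjusted p of 4.08e-07, and still called 4 at each dose when any 1 line was dropped, a check added after the data had been seen. Without the block, dropping line M3 left 0 of the 3 calls at R10 and dropping M3(2) left 1 (Timp1), dropping M1(2) lost Timp1 (adjusted p = 0.0659), and dropping M11 gave 2 calls at R4.

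**Figure D2:**
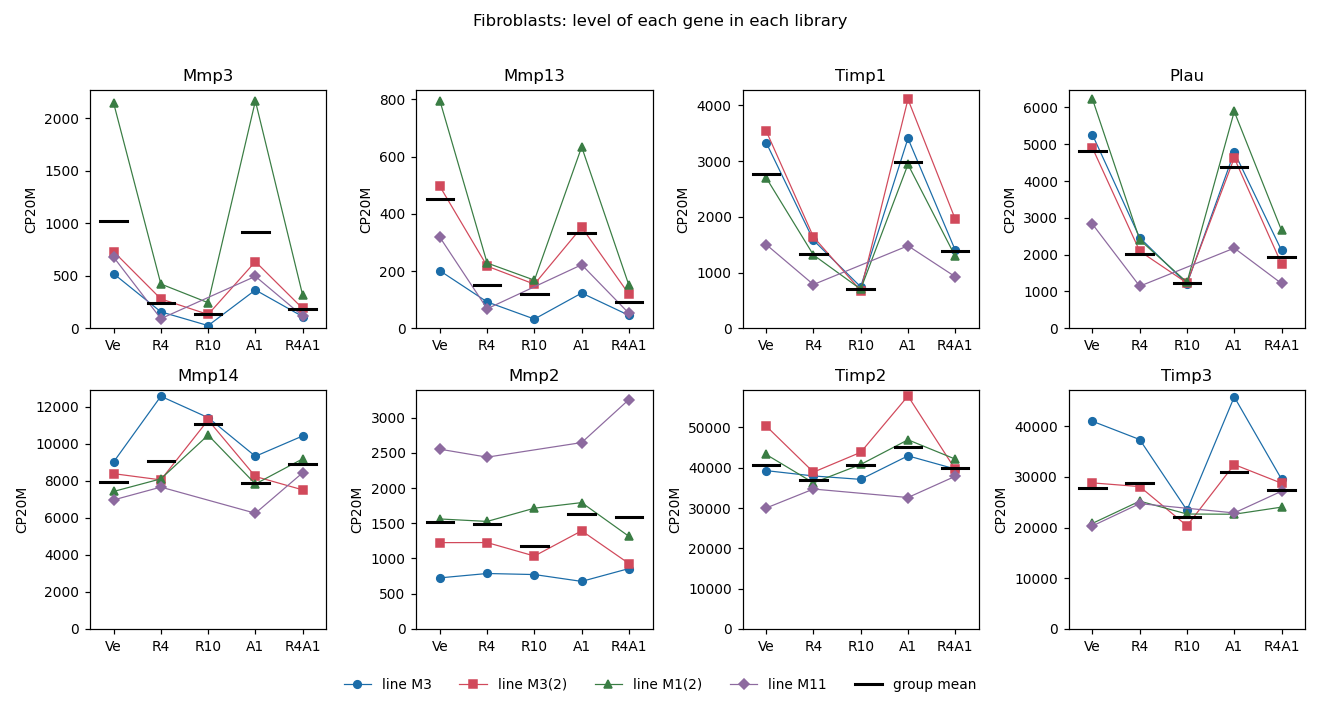
CP20M of the 8 tested members in each of the 19 fibroblast libraries, with linear axes from 0. Coloured lines join the libraries of 1 line (M11 has no R10 and is joined from R4 to A1), and black bars are group means. Mmp3, Mmp13, Timp1 and Plau drop in R4, R10 and R4A1. They stay closer to Ve in A1, where Mmp13 and Plau are lower in 4 of 4 lines. Mmp2 keeps M3 as the lowest line in every group.

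The dose step from R4 to R10 went further down for the same genes. Plau was lower in R10 than in R4 in 3 of 3 lines, as were Mmp3, Mmp13 and Timp1. None passed across lines by limma (1 of 8 members under an unadjusted p of 0.05, 0 by edgeR, 0.145% of all genes called). In the blocked fit 3 passed, with log2 changes of -1.09 ± 0.25 for Mmp3, -1.08 ± 0.11 for Timp1 and -0.90 ± 0.09 for Plau and adjusted p values of 0.00727, 3.48e-05 and 3.74e-05, where 6.02% of all genes were called, 5.02% lower. Mmp13 missed the fold threshold there, at -0.54 ± 0.18. Dropping line M11 in the fit without a block gave 2 calls, Timp1 and Plau.

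The membrane-anchored Mmp14 moved the other way. It was at 9018, 8388, 7427 and 6970 CP20M in Ve for M3, M3(2), M1(2) and M11, and at 11414, 11284 and 10471 in R10. All R10 libraries lay above all Ve libraries. The log2 change was 0.48 ± 0.17, under the fold threshold, with an adjusted p of 0.0645, or 0.00332 with the block (0.42 ± 0.10). In R4 line M3 stood apart at 12568, the other lines having 7663 to 8107.

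Neither Mmp2 and Timp2, its partners in pro-Mmp2 activation, nor Timp3 passed. Mmp2 kept the order of the lines, with M3 lowest (675 to 857 CP20M) and M11 highest (2438 to 3256) in each group they entered, and its log2 change in R10 was -0.30 (95% interval -1.43 to 0.83). Timp2 changed by 0.02 (-0.34 to 0.37) and Timp3 by -0.27 (-0.80 to 0.26). In the blocked fit the values were 0.02 for Mmp2, -0.07 for Timp2 and -0.35 ± 0.14 for Timp3 (adjusted p = 0.0633). From R4 to R10 Timp3 was lower in 3 of 3 lines without overlap, with a blocked change of -0.44 ± 0.14 (adjusted p = 0.0416) that was under 1.5-fold.

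Timp3 carries a limit of annotation. Of its 8144 exon bases 1733 are shared with exons of Syn3 on the other strand, and the strand setting of the counting was not stated. Syn3 was counted at 35.7% to 38.8% of the Timp3 value in the 19 fibroblast libraries and at 35.4% to 42.1% in the 19 organoid libraries with at least 200 CP20M of Timp3. Reads of the pair cannot be told apart here. Mmp7 shares 123 of its 1068 exon bases with the antisense gene AV064505, and Timp1 shares none with Syn1.

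No member passed for A1 alone against Ve or for R4A1 against R4, and Plau passed for R4A1 against Ve. A1 alone was compared with Ve to see whether blocking autophagy acted on its own. Of the 8 members 0 passed by limma or edgeR, 0 had an unadjusted p under 0.05, and 0% of all genes was called (120 at an unadjusted p under 0.05). The log2 changes were -0.28 (95% interval -1.61 to 1.06) for Mmp3, -0.47 (-1.65 to 0.70) for Mmp13, -0.17 (-0.85 to 0.52) for Plau and 0.09 (-0.61 to 0.78) for Timp1. Mmp13 and Plau were lower in A1 in 4 of 4 lines, with log2 changes of -0.63 to -0.32 and -0.37 to -0.08. Timp2 and Timp3 were higher in 4 of 4, by at most 0.20 and 0.17.

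R4A1 was set against Ve and against R4. Mmp3 had 111, 188, 315 and 116 CP20M in R4A1 for M3, M3(2), M1(2) and M11, and Mmp13 45, 119, 150 and 52, both below all Ve libraries. Plau had 2116, 1747, 2661 and 1216, also below all Ve libraries, and was the 1 member called against Ve, at -1.30 ± 0.32 (adjusted p = 0.0393, 1.66% of all genes called, 0.925% lower, 1 member by edgeR). Without the filter on level its adjusted p was 0.0652, and it was lost on dropping M3, M3(2) or M1(2). Timp1 was at 1402, 1959, 1291 and 925, overlapping Ve. With the block Mmp3 (-2.24 ± 0.22), Mmp13 (-2.04 ± 0.17), Timp1 (-0.96 ± 0.10) and Plau all passed (6.99% of all genes, 4.33% lower).

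Against R4 itself, R4A1 differed in 0 of 8 members by limma, by edgeR and at an unadjusted p of 0.05, with 0.00906% of all genes called. The intervals were wide for Mmp3 (-0.26, 95% interval -1.60 to 1.07) and Mmp13 (-0.60, -1.77 to 0.58) and narrower for Plau (-0.06, -0.74 to 0.62) and Timp1 (0.07, -0.62 to 0.76). Mmp13 was lower in R4A1 than in R4 in 4 of 4 lines, by 0.29 to 0.78, with an adjusted p of 0.0552 in the blocked fit. R4, R10, A1 and R4A1 share their Ve libraries.

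**Figure D3:**
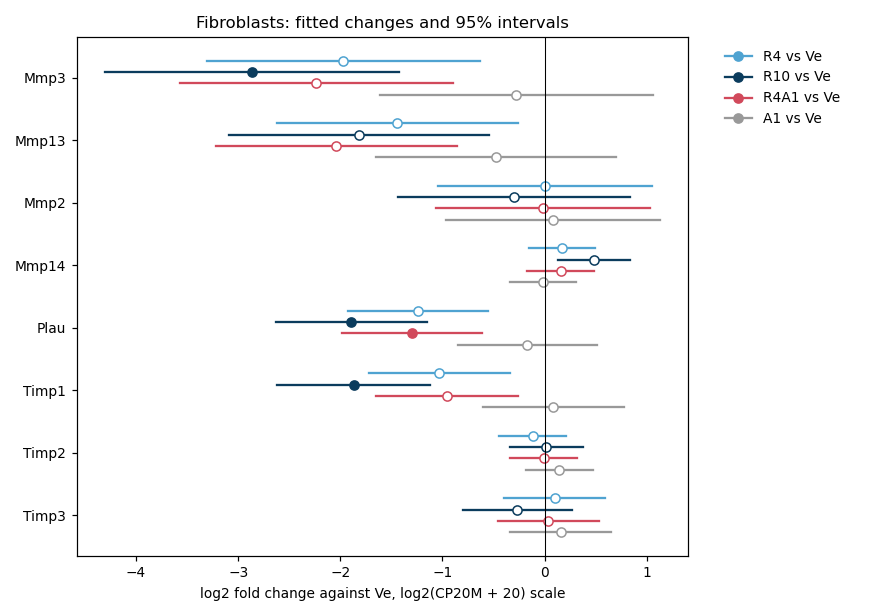
Fitted log2 fold changes of 8 members against Ve in fibroblasts, on the log2(CP20M + 20) scale, with 95% intervals from limma without a block. Filled points had an adjusted p below 0.05 and a change of at least 1.5-fold. Mmp3, Plau and Timp1 in R10 and Plau in R4A1 are the 4 filled points, and all A1 intervals include 0.

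Neighbouring gene families in fibroblasts were described from fixed lists, beside 7.33% of all genes called at R10. Of the 17 other metalloproteinases 10 were tested at R10 and 1 rose and 1 fell, Mmp28 (epilysin) by 1.31 ± 0.33 and Mmp12 (macrophage elastase) by -2.41 ± 0.52. Mmp10 (stromelysin-2), the neighbour of Mmp3, had -1.73 ± 0.67 with an adjusted p of 0.0982. Among 10 tested ADAMTS proteases 1 rose, Adamts2 (2.19 ± 0.31), the procollagen N-proteinase, and 2 fell, Adamts14 (-1.67 ± 0.34) and Adamts9 (-0.90 ± 0.28). None of 8 tested genes of the plasminogen system passed, of 7 ADAM proteases, of 3 other inhibitors or inducers or of 8 other matrix proteases. The urokinase receptor Plaur had -1.02 ± 0.37 (adjusted p = 0.0797). Of 11 AP-1 and Ets factors 1 fell, Fosl1 (-0.83 ± 0.26, adjusted p = 0.0428). At R4 1 ADAMTS gene rose and 1 fell (1.02% of all genes called). In R4A1 against Ve the same numbers did so and 1 other metalloproteinase fell (1.66% of all genes called). None of these lists held a call in A1, in R4A1 against R4 or in R10 against R4.

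Markers of other cell types moved with regorafenib in the same libraries. The 9 macrophage markers summed to 1196 to 6488 CP20M in Ve, 751 to 2134 in R4, 611 to 665 in R10, 899 to 4143 in A1 and 506 to 738 in R4A1. Of these 3 were tested and 1 fell at R10, Lyz2 (-2.60 ± 0.60), while Ptprc and Adgre1 never exceeded 133 and 152 CP20M. The 5 smooth muscle markers summed to 37352 to 84569 in Ve and 105998 to 125171 in R10, Myh11 rising by 1.87 ± 0.36 at R10. Of 8 fibroblast markers 2 fell at R10, Pdgfra (-3.03 ± 0.66) and Col3a1 (-1.43 ± 0.36), where 7.33% of all genes were called. At R4 Pdgfra was also called lower (-2.51 ± 0.61) and Myh11 higher (1.86 ± 0.34), with 1.02% of all genes called. In R4A1 against Ve 1 fibroblast marker and 1 macrophage marker were called lower, with 1.66% of all genes called. The 5 endothelial markers summed to 1136 to 9596 in Ve, 1838 to 25819 in R4, 1531 to 6325 in R10, 905 to 6576 in A1 and 2006 to 16663 in R4A1. None was called, and at R4 all 5 had positive values with a median log2 change of 1.14. The part of these shifts in the values of Mmp3, Mmp13, Plau and Timp1 was not tested.

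By the smallest root-mean-square difference of centred log2 values over the 19 libraries, the gene most like Mmp3 was Mmp10 (0.484), followed by Mmp13 (0.503) and Galnt13 (0.587). Plau was closest to Vcam1 (0.197), Sema3a (0.245) and Lipg (0.248), and Timp1 to Lipg (0.254), Tnxb (0.285) and Chst1 (0.291). These libraries share their lines and their scaling, and the likeness is a description.

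In organoids, regorafenib raised Timp2, the only one of the 6 tested members past the threshold across lines by limma or edgeR. The comparison joined both genotypes and both doses against Ve, at the stricter threshold of 0.001 for the adjusted p. Timp2 was at 4130, 2200 and 2519 CP20M in Ve for colonoids M1, M40 and M41 and at 3142, 4835 and 5912 for tumoroids F11, M14 and M3. It was at 8557, 6384 and 2810 in R4 for the colonoids and 9810, 10171 and 8439 for the tumoroids. In R8 it reached 10303, 10741 and 13808 in colonoids and 10459, 13861 and 11288 in tumoroids. Every R8 library lay above every Ve and every R4 library, and R4 was above Ve in 6 of 6 lines.

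The fitted log2 change of Timp2 was 1.35 ± 0.21, a fold of 2.54, adjusted p = 0.000339, among 4.97% of all 11320 genes called (2.82% higher). edgeR made the same call. Taken by genotype it was 1.46 ± 0.30 in colonoids (adjusted p = 0.00463, with 13.3% of genes called at 0.05, 5.41% higher) and 1.23 ± 0.30 in tumoroids (adjusted p = 0.0216, with 6.78%, 4.11% higher). The difference between the genotypes was -0.23 (95% interval -1.13 to 0.67), and 0 of the 6 members differed in response (0 by edgeR, 0 at an unadjusted p of 0.05, 0.00883% of all genes). Leaving out line M40, F11, M3 or M14 lost the joint call at 0.001, with adjusted p values of 0.00498, 0.00484, 0.00233 and 0.00558. The call in colonoids was lost without M40 (adjusted p = 0.0735) and that in tumoroids without F11, M3 or M14 (0.214, 0.0781 and 0.19) or without the filter on level (0.0501). The low value of line M41 in R4 rested on 72 reads, with an exact Poisson 95% interval of 2198 to 3538 CP20M for counting error, and without that library the joint change was 1.46.

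Timp2 was closest over the 18 libraries to Plcg2 (root-mean-square difference 0.265), Pld3 (0.291) and Mapre3 (0.317). Between R8 and R4 its log2 change was 0.71 ± 0.24, with an adjusted p of 0.2.

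Mmp13 was lower in R8 than in R4 in every organoid line. It was at 406, 12 and 401 CP20M in Ve for colonoids M1, M40 and M41 and at 6, 515 and 110 for tumoroids F11, M14 and M3. In R4 the values were 158, 339 and 118, and 16, 759 and 195. In R8 they were 5, 13 and 8, and 0, 25 and 5. R8 was below R4 in 6 of 6 lines, and the highest R8 value (25) was above the lowest R4 value (16). The log2 change from R4 to R8 was -2.77 ± 0.83, adjusted p = 0.151 without and 0.0477 with the line as a block, with 0.451% and 1.78% of genes called (0.875% lower with the block). Of the 6 members 3 had an unadjusted p under 0.05 in this comparison (Mmp13, Timp2 and Timp3) and 0 passed by limma or edgeR. The macrophage-list gene Cd68 rose from R4 to R8 (2.47 ± 0.49, adjusted p = 0.0391), and its part in the Mmp13 and Timp3 values was not tested.

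Timp3 ranged from 26 to 33623 CP20M over the organoid libraries. In tumoroids F11, M14 and M3 it was at 2430, 9702 and 33623 CP20M in Ve, at 3871, 957 and 3770 in R4 and at 4552, 3002 and 5493 in R8. In colonoids M1, M40 and M41 it was at 757, 73 and 122 in Ve, at 748, 26 and 40 in R4 and at 2539, 383 and 3210 in R8. The value of 40 in M41 R4 was 1 read, with an exact Poisson 95% interval of 1.0 to 217.4 CP20M. From R4 to R8 it was higher in 6 of 6 lines (2.17 ± 0.82, adjusted p = 0.233, or 0.0744 with the block). Against Ve at both doses it changed by 1.01 ± 1.01 in colonoids and -1.53 ± 1.01 in tumoroids, neither past the test, and the difference between them was -2.54 (95% interval -5.57 to 0.48).

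Mmp14 split the organoid lines. In tumoroids F11, M14 and M3 it was at 397, 398 and 518 CP20M in Ve, at 1344, 1416 and 1067 in R4, at 705, 1161 and 1192 in R8 and at 740, 698 and 1334 in FU, so that all treated tumoroid libraries were above all Ve ones. In colonoid line M40 it was at 746, 1132, 1263 and 1304 in the same order of treatments, in the tumoroid range. Colonoid lines M1 and M41 had 0 to 10 CP20M in every treatment, at most 5 reads. Without a block the tumoroid change was 1.33 ± 1.41 (adjusted p = 0.663). That SE is shared by all groups of the fit and takes in the split among the colonoid lines. With the line as a block the tumoroid change was 1.33 ± 0.21 (adjusted p = 0.00263, with 9.67% of all genes called and 5.82% higher). The blocked SE is shared too. It takes in colonoids M1 and M41, whose values near 0 can vary little on this scale. Without the block and without colonoid line M40, only M1 and M41 are left among the colonoids. A call there follows from the line dropped, and no p-value is given for it. Over both genotypes the blocked change, which averages in M1 and M41, was 0.84 ± 0.15. Its adjusted p of 0.00144 was above the threshold of 0.001.

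Plau did not pass the test in organoids. It was at 350, 68 and 668 CP20M in Ve for colonoids M1, M40 and M41 and at 53, 631 and 106 for tumoroids F11, M14 and M3, and 230 to 742 in the 12 regorafenib libraries. Against Ve it was higher in 5 of 6 lines in R4 and in 3 of 6 in R8. The joint log2 change was 0.96 ± 0.47, adjusted p = 0.143 and 0.0416 with the block. Mmp7 changed by -0.04 ± 0.45.

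**Figure D4:**
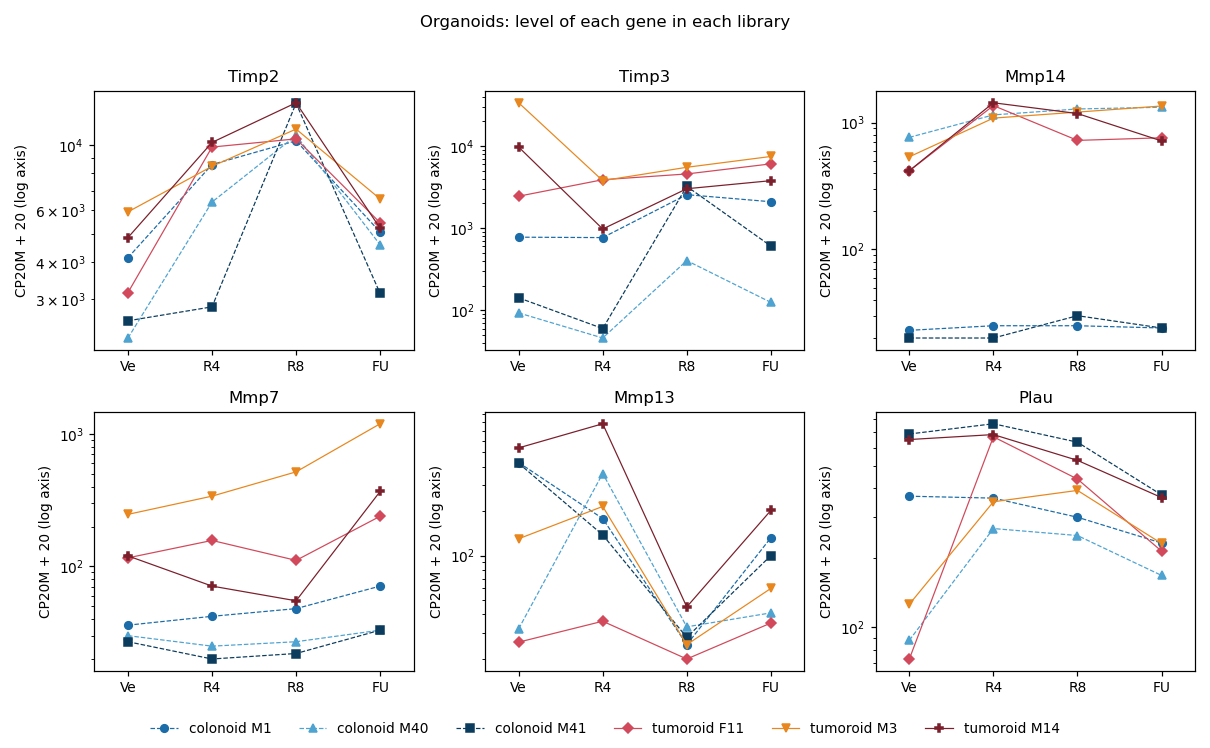
CP20M + 20 (log axis) of the 6 tested members in the 24 organoid libraries, with dashed lines for the 3 colonoid and solid lines for the 3 tumoroid lines. Timp2 is highest in R8 in every line, Mmp13 lowest in R8 in all but line M40, and Mmp14 lies at 0 to 10 CP20M in colonoids M1 and M41 throughout. Colonoid M41 in R4 had the shallow library.

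The comparison of tumoroids with colonoids in Ve asked what loss of Apc alone did. At the threshold set for it (adjusted p 0.01 and a log2 change of 1) 0 of 6 members passed by limma or edgeR, and 0.141% of all genes were called. Timp3 was 5.42 ± 1.16 log2 units higher in tumoroids, with no overlap between genotypes and an adjusted p of 0.0336, which passes the looser threshold of 0.05 and 1.5-fold (1.39% of genes, 0.627% higher). Dropping colonoid line M1 brought it past the stricter one (adjusted p = 0.00872). Dropping M40 did so for Mmp14, but M40 was the only colonoid line with more than a few reads of that gene. The call without M40 follows from the line dropped, and no p-value is given for it. Mmp7 was at 96, 100 and 227 CP20M in tumoroids F11, M14 and M3 against 16, 10 and 7 in colonoids M1, M40 and M41, again without overlap. Mmp7 entered the fit through tumoroid line M3 alone, so its genotype difference is given as values without a test. Here each line occurs once in Ve, and genotype and line cannot be told apart by a block.

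5-Fluorouracil gave Mmp7 its highest values. Mmp7 was at 219, 348 and 1173 CP20M in FU for F11, M14 and M3 and at 51, 13 and 13 for M1, M40 and M41, above Ve in 6 of 6 lines. The colonoid values were low, with 2 to 11 reads in Ve and 7 to 33 in FU. Its log2 change was 1.06 ± 0.52, adjusted p = 0.333 without and 0.0203 with the block. Mmp14 was higher in the 3 tumoroid lines, by 0.78 to 1.33, and in colonoid M40, by 0.79, while colonoids M1 and M41 had at most 2 reads in Ve and in FU, too few to show a change. Its fitted value over all lines was 0.68 ± 1.20 (adjusted p = 0.882) or 0.68 ± 0.17 with the block (adjusted p = 0.0205). Both fits take in colonoids M1 and M41, whose values near 0 can vary little on this scale. Timp2, higher in 6 of 6 lines by 0.11 to 1.05, changed by 0.45 ± 0.23 (adjusted p = 0.36). By limma without a block and by edgeR 0 of 6 members passed, 0 at an unadjusted p of 0.05, with 2.35% of genes called, and 5.05% with the block (3.81% higher).

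Other proteases and their regulators in organoids were counted at the 0.001 threshold for regorafenib against Ve, where 4.97% of all genes were called. Of 3 tested matrix proteases of other classes all 3 rose: Bmp1, the procollagen C-proteinase (2.46 ± 0.27), and the lysosomal cathepsins Ctsl (1.17 ± 0.12) and Ctsb (0.80 ± 0.14). Of 3 ADAMTS genes 1 fell, Adamts15 (-3.07 ± 0.40). None passed of 5 other metalloproteinases, 6 ADAM proteases or 2 other inhibitors and inducers. Of 12 AP-1 and Ets factors 3 fell, Fos (-1.88 ± 0.21), Elf3 (-1.43 ± 0.17) and Fosl2 (-0.93 ± 0.17). At 0.05, 13.3% of all genes were called in colonoids and 6.78% in tumoroids. There 1 of the 5 other metalloproteinases rose in colonoids and none in tumoroids, and the 3 matrix proteases rose in both. Of the 6 ADAM proteases 1 rose in both. Of the 3 ADAMTS genes 1 fell in both and 1 rose in colonoids. Of the 12 AP-1 and Ets factors 3 fell in both and 1 rose in tumoroids. From R4 to R8, where 0.451% of all genes were called, 1 AP-1 or Ets factor fell, Junb (-1.11 ± 0.21), named after its value was seen. Between genotypes in Ve and in 5-FU no gene of these lists was called. Among the 8 epithelial markers Cdx1 (-3.28 ± 0.50) and Cdx2 (-1.89 ± 0.29) fell beside Timp2, and the 9 macrophage markers summed to 788 to 3078 CP20M in Ve and 1121 to 3662 in regorafenib. The part of these markers in the Timp2 values was not tested.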

How the data were processed

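The authors trimmed reads with Trimmomatic 0.36, aligned them to GRCm38 with STAR 2.5.3a and counted them per gene with HTSeq 0.9.1 (submitters' processing notes; Ensembl annotation per the study's methods). The deposited values are whole-number signal per gene, counts that the authors scaled to 20000000 per library and rounded up (CP20M), not divided by gene length. The strand setting was not stated. Each library's read total (512592 to 22368445) was recovered from its low values, which step in units of 1 read, and 99.6% to 100% of a library's values fell on whole reads. Read recovery and the fits were tested on simulated data.

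Changes were fitted with limma 3.58.1 (trend = TRUE, R 4.3.3) on log2(CP20M + 20), over genes with at least 200 CP20M in at least 2 libraries, with Benjamini-Hochberg adjustment over all genes tested. This replaces the edgeR quasi-likelihood test of the study, which edgeR 4.0.16 ran on recovered reads as an alternative (889 genes called for regorafenib in organoids). Alternatives also covered the pseudocount (2 and 100), the filter, TMM scaling, the line as a block and each line left out. The 18 organoid libraries without FU, the 24 with FU and the 19 fibroblast libraries were fitted separately. The log2(CP20M + 20) scale understates changes of low genes. Line recurs across treatments and pairs libraries by design. Deviations from group means correlated at a mean of 0.429 (18 organoid libraries) and 0.719 (fibroblasts) within a line, against -0.301 and -0.248 between lines. P-values of fits without a block measure the spread between lines of 1 mouse each. Those of blocked fits measure how far the lines differ in their change. No 2 replicate libraries were alike within sampling noise. Intervals of counts and the floor of 3 reads cover counting error only. The members, gene lists and thresholds were chosen with earlier results of these data known. All 10 members are named, and from each list at most 4 genes past the threshold with the largest changes in regorafenib against Ve or R10 against Ve. Mmp10, Plaur, Junb and the marker genes Ptprc, Adgre1, Csf1r, Cd68, Cd14, Ly6g, Col1a2 and Lum were named after their values were seen. For organoids every gene of the fibroblast marker list is named. Tumoroid 5-FU libraries whose titles say colonoid were placed by their genotype label and library name. Levels per kilobase used exon unions of GENCODE vM21 (GRCm38). A result on 1 gene of the lists is not reported here.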

Additional observations from a re-analysis of the deposited data

Results flagged for a closer look

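Among 36 groups of 4 fibroblast libraries tested for 1 library far from the rest, 3 were flagged, and chance flags about 1 in 20 groups. Mmp3 of line M1(2) in Ve was 2145 CP20M, the other lines having 519 to 730. Mmp3 of the same line in A1 was 2164, the others having 364 to 634. Mmp14 of line M3 in R4 was 12568, the others having 7663 to 8107.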

How the results depend on the processing

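Of 90 member values, 7 passed the threshold. Over the alternatives, 1158 values were recomputed, of which 1053 kept direction and call, 61 reversed (none of them of a value that had passed), 19 lost a call and 25 gained one, and the cause of these changes was not tested. With the line as a replicate block the members called rose to 2 in tumoroids under regorafenib, 1 for R8 against R4, 2 for 5-FU, 4 for fibroblast R4, 4 for R4A1 against Ve and 3 for R10 against R4, with all genes called going from 51 to 201 (R8 against R4), 272 to 584 (5-FU), 113 to 796 (R4), 809 to 1519 (R10), 183 to 771 (R4A1), 1 to 158 (R4A1 against R4) and 16 to 664 (R10 against R4). No paired analysis was possible for tumoroids against colonoids because lines are not shared. The blocked counts with 1 line dropped, added after the data were seen, were 4 for R4, R10 and R4A1 and 2 to 4 for R10 against R4. Without a filter on level 0 members passed in tumoroids and 0 in R4A1 against Ve. At 0.05 and 1.5-fold, 1 member passed between genotypes in Ve, with 157 genes in place of 16. All-gene counts were 563 (889 by edgeR, 1127 without colonoid M41 R4) for regorafenib in organoids, 768 (1158 and 1439) in tumoroids, 51 (95 and 130) for R8 against R4, 16 (27 and 84) between genotypes and 272 (427 and 493) for 5-FU. Other changes over 1.5 times were 10, 96 and 98 for R8 against R4 (no filter, TMM scaling, all 24 libraries), 3, 33, 37, 30 and 46 between genotypes (pseudocounts of 2 and 100, filter of 20 CP20M, TMM, all 24 libraries), 153 for 5-FU with no filter, 278 for R4A1 with a filter of 20 CP20M, and 0 to 3 where the count was 1. TMM moved the median of all genes by 0.105 in colonoids and the share of higher calls from 40.8% to 53.6% there and from 41.2% to 30.2% for R8 against R4. Reversed log2 changes, all from values not called, were for Mmp7 0.036 (pseudocount 100), 0.23 (edgeR) and 0.017 (without M41 R4) in organoids, 0.047 (edgeR) and 0.032 (without M41 R4) in colonoids, -0.061 (pseudocount 2) in tumoroids, -0.030 (without M41 R4) for the genotype difference, and -0.032 (edgeR) and -0.086 (without M41 R4) for R8 against R4. They were 0.28 for Mmp14 in R8 against R4 (pseudocount 2) and -0.35 for Plau in 5-FU (edgeR). In fibroblasts they were, for Mmp2, -0.018 in R4 (edgeR), 0.016 in R10 and 0.011 in R10 against R4 (block), 0.023 and 0.098 in R4A1 against Ve and 0.0064 and 0.12 against R4 (TMM and edgeR). For Timp2 they were -0.068 in R10 (block) and 0.029 and 0.0083 in R4A1 (TMM and edgeR), and for Mmp14 0.0032 and 0.011 in A1 (TMM and edgeR) and 0.012 in R4A1 against R4 (TMM). Leaving out 1 line, members called ranged from 0 to 1 in organoids and in colonoids, 0 to 2 in tumoroids, 0 to 1 between genotypes in Ve, 0 to 2 in R4, 0 to 3 in R10, 0 to 2 in R4A1 and 0 to 2 in R10 against R4. Log2 changes with a reversal then ranged, in organoids under regorafenib, from -0.14 to 0.19 (Mmp7) and -0.84 to 0.076 (Timp3), in colonoids from -0.29 to 0.056 (Mmp7) and -0.075 to 0.79 (Plau), in tumoroids from -0.090 to 0.47 (Mmp7), for the genotype difference from -0.053 to 0.56 (Mmp7), -0.31 to 1.95 (Mmp13) and -0.45 to 0.026 (Timp2), for R8 against R4 from -0.18 to 0.092 (Mmp14), between genotypes in Ve from -1.80 to 0.56 (Mmp13) and -1.56 to 0.023 (Plau), and in 5-FU from -0.22 to 0.65 (Timp3) and -0.12 to 0.50 (Plau). In fibroblasts they ranged from -0.032 to 0.028 (Mmp2, R4), -0.12 to 0.070 (Timp2, R10), -0.045 to 0.033 (Mmp14, A1), -0.13 to 0.11 (Mmp2), -0.12 to 0.10 (Timp2) and -0.089 to 0.21 (Timp3) in R4A1 against Ve, -0.16 to 0.11 (Mmp2), -0.077 to 0.073 (Mmp14), -0.12 to 0.034 (Timp3) and -0.13 to 0.0067 (Plau) against R4, and -0.65 to 0.065 (Mmp13, R10 against R4). All genes called with 1 line left out, where they moved over 1.5 times, were 155 to 223 for regorafenib in organoids (563 with all lines), 731 and 901 in colonoids (1500), 157 to 180 and 1394 in tumoroids (768), 0 to 13 for R8 against R4 (51), 3 to 5 and 49 between genotypes (16), 26 to 55 for 5-FU (272), 28 to 75 and 317 for R4 (113), 358 to 386 for R10 (809), 32 to 71 and 359 for R4A1 (183), 0, 2 and 45 for R10 against R4 (16) and 239 and 403 for the same with the block (664). The shares of all genes printed beside the members' counts move with them. Mmp7 fell below the filter without line M3 and has no value there. Depth limits the colonoid M41 R4 library, where 3 reads are 117 CP20M.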
